A study of Mus musculus with 12 samples.

Results

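Neurotransmitter-gated receptors bind glutamate, GABA, glycine or acetylcholine at the cell surface and either open an ion channel or act through G proteins. They were examined in embryonic mouse retina at a stage long before photoreceptors respond to light. All protein-coding genes whose names match the AMPA, NMDA, kainate, delta, metabotropic glutamate, GABA-A, GABA-B, glycine and nicotinic receptor series were taken from the deposited table of 12 libraries. This gave 61 of the 19954 genes listed. One of them, Grid2ip, encodes a scaffold protein and is no receptor itself, so 60 receptor genes remained.

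RNA sequencing was done on 12 libraries of retina at E15.5 from C57BL/6 mice, each library from a pool of 12 retinas of embryos of several litters. Wildtype retinas (genotype given as wild type) were compared with mutant retinas of the genotype Six3-Cre:Tbr2f/f, and the labels do not say whether wildtype embryos carried floxed alleles or Cre. There were 3 libraries, numbered 4, 5 and 6, for each genotype in males and in females, which makes 6 per genotype. The Six3-Cre transgene drives Cre in the early eye field, so deletion of Tbr2, listed as Eomes, is not aimed at 1 cell type. The share of retinal cells that lost the gene was not measured. Because embryos were pooled, p-values measure the spread between pools and not between single embryos. In bulk RNA, fewer cells of a type and less RNA per cell cannot be told apart.

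Fast excitation in the mature retina runs through AMPA and kainate receptors, and fast inhibition through GABA-A and glycine receptors, both chloride channels. Before these circuits exist, immature retinal neurons fire in spontaneous waves, and some of these waves depend on acetylcholine acting on neuronal nicotinic receptors. Whether such waves occur at E15.5 was not tested. Most of these receptors are assemblies of several subunits, so that the set of subunit genes a tissue transcribes limits which channels it can build.

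Total counts per library ran from 18514607 to 27072825, and receptor genes took 0.103% to 0.118% of them. Genes of retinal progenitors (Rax, 90.3 FPKM in wildtype), ganglion cells (Pou4f2, 46.3 FPKM), photoreceptor precursors (Crx, 32.7 FPKM) and amacrine cells (Tfap2b, 12.5 FPKM) were present, and the 8 listed skeletal muscle genes ran from 0.0046 FPKM (Ckm) to 0.813 FPKM (Tnnt1), with Myod1 at 0.0181 FPKM. FPKM is the number of fragments per kilobase of gene per unit of library depth, so that genes of unequal length can be set side by side. Lens marker genes differed widely between libraries, with a sum of 4 genes of 2.81 to 350 FPKM in wildtype and 1.82 to 888 FPKM in mutant libraries. Mutant male 6 had reads on the fewest genes (16903), and 5 libraries of all 4 groups had a high level of the mitochondrial transcript mt-Nd6. Eomes, which checks the labels, was at 53.4 to 76.1 CPM (counts scaled to library size) in wildtype and 9.62 to 27.4 CPM in mutant libraries. The log2 difference of Eomes was -1.76 (SE 0.15, adjusted p = 0.000484 by Benjamini-Hochberg, quasi-likelihood test of edgeR).

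The first question was which receptors are present at this age. A gene was called present at a mean of at least 1 FPKM over the 6 wildtype libraries, low at 0.1 to 1 FPKM and trace below that. By this rule 30 of the 60 receptor genes were present, 20 were low and 10 were trace, while 73.2% of the 16220 listed coding genes were present. The median receptor gene was at 0.932 FPKM and the median coding gene at 6.67 FPKM. Reads were found in all 12 libraries for 50 of the receptor genes.

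Summed per family, transcripts of the neuronal nicotinic receptors were the most abundant at 105 ± 2.01 FPKM (SD, n = 6 wildtype libraries). GABA-B followed with 44.7 ± 3.49 FPKM, kainate with 38.2 ± 2.21 FPKM, GABA-A with 26.0 ± 3.48 FPKM and AMPA with 14.7 ± 0.991 FPKM. Metabotropic glutamate receptors summed to 10.8 ± 0.643 FPKM, glycine receptors to 5.27 ± 0.806 FPKM and NMDA receptors to 4.41 ± 0.530 FPKM. The muscle nicotinic genes (0.987 ± 0.254 FPKM) and the rho subunits of the GABA-A receptor (0.375 ± 0.162 FPKM) were lowest. Chrna3, Gabbr1, Grik5 and Chrna4 stood highest among single genes, and with the union of exons as gene length Chrna4 passed Grik5. The wildtype ranges of neighbouring genes overlapped in 55 of the 60 steps of the order of all 61 genes, so ranks beyond the first few are loose.

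**Figure D1:**
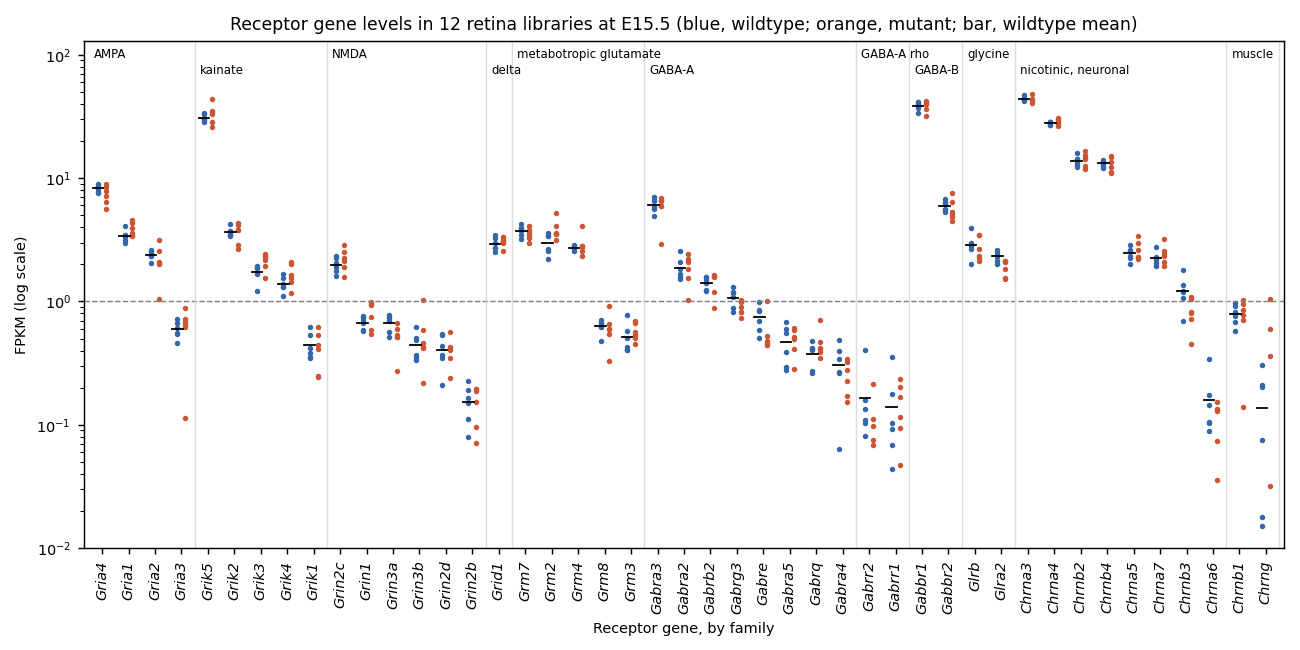
FPKM (log scale) of 45 receptor genes that were present or low, by family, with 1 point per library (blue wildtype, orange mutant) and a bar at the wildtype mean. The dashed line marks 1 FPKM, trace genes are left out and values of 0 cannot be drawn on this axis. Chrna3, Gabbr1, Grik5 and Chrna4 stand highest, and the wildtype and mutant points of each gene overlap.

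The median number of CG pairs before the start of receptor genes fell from present to low to trace genes, but this depended on the measure. RefSeq promoters (GRCm38.p6, the assembly of mm10) were matched for 44 of the 60 receptor genes, and CG pairs were counted in the 250 bases before the start. For 3 of the 44, Chrna4, Grin2d and Chrng, that start lay over 1000 bases from the listed start of the gene, and they were kept. The median was 16 CG in 23 present genes, 9 in 13 low genes and 3 in 8 trace genes, whose counts ran from 1 to 6. Single genes overlapped, with 0 to 42 CG in present and 1 to 29 CG in low genes, and the order was not tested. All listed coding genes had medians of 17, 8 and 4 CG in 8986, 1730 and 1165 promoters. Relative to base composition (observed over expected CG) the medians of the receptor genes were 0.575, 0.615 and 0.20, so that present and low genes changed places, against 0.752, 0.429 and 0.269 over all coding genes. Counts in the 44 promoters ran from 0 to 42 CG, and the 3 promoters printed here do not reach the upper part of that range. They are those of the most abundant receptor gene, a present GABA-A subunit with no CG in the window, and a trace gene with few. CG pairs are in capitals and each sequence reads 5′ to 3′ and stops before the listed gene (for Gabra3, 209 of the 250 bases).
Chrna3: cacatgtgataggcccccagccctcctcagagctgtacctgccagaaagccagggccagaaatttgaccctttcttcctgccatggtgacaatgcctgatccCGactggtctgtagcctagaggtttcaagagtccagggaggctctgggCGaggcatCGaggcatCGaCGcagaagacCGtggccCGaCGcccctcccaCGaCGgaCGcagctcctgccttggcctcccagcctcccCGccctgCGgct
Gabra3: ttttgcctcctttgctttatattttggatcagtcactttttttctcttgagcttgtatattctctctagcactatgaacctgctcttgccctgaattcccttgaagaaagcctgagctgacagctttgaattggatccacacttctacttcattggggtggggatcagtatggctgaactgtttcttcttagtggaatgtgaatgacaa
Grm6: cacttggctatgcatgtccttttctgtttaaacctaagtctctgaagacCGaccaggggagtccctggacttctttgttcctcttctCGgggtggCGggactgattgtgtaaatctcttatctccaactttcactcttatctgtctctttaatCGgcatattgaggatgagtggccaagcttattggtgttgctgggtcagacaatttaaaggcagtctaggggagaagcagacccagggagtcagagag
They lie at chr9:55026563-55026812 on the minus strand (13 CG), chrX:72656849-72657057 on the minus strand (0 CG in the 250 bases) and chr11:50850435-50850684 on the plus strand (4 CG). For these 3 genes, the wildtype levels were 44.2, 6.09 and 0.0077 FPKM.

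Neuronal nicotinic receptors are acetylcholine-gated cation channels of alpha and beta subunits. Chrna3 (ENSMUSG00000032303, chromosome 9, 55011343 to 55026559) encodes the alpha subunit of the receptors of autonomic ganglia and of acetylcholine-dependent retinal waves. It ranged over 42.1, 44.0 and 47.5 FPKM (lowest, median, highest) in wildtype and 40.3, 43.0 and 47.7 FPKM in mutant libraries. Chrna4 (ENSMUSG00000027577), the main alpha partner of Chrnb2 in brain, had 26.8, 28.4 and 28.5 FPKM in wildtype and 26.5, 28.3 and 30.7 FPKM in mutants. The mutant ranges enclosed the wildtype ranges for both genes. The beta subunits were close to each other. Chrnb2, which acetylcholine-dependent waves require, had 12.3, 13.8 and 16.1 FPKM in wildtype and Chrnb4 had 12.0, 13.2 and 14.1 FPKM. In mutants Chrnb2 had 11.8 to 16.7 FPKM and Chrnb4 10.9 to 15.1 FPKM. These 4 genes made up 42.0%, 26.6%, 13.2% and 12.5% of the summed FPKM of the family in wildtype.

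Chrna5, an accessory alpha subunit, was at 2.45 ± 0.307 FPKM, and Chrna7, which forms channels of 1 subunit type, at 2.24 ± 0.290 FPKM. The accessory subunit Chrnb3 was at 1.22 ± 0.362 FPKM. Chrna6, often a partner of Chrnb3, was low at 0.159 FPKM, and Chrna10, a hair cell subunit, had no read in the wildtype libraries and at most 2 in a mutant library. Neighbouring genes differed widely. In the cluster of Chrna5, Chrna3 and Chrnb4 (chromosome 9, 54980880 to 55048544, 67.7 kb), the highest gene stood 18.0 times above the lowest by mean FPKM, and 15.502 to 21.732 times in single wildtype libraries. Of the exon bases of Chrnb2, 16.3% are shared with Adar on the opposite strand (13.8 FPKM). As the strand setting of the counting is not given, reads there cannot be told apart.

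Of the muscle-type subunits, Chrnb1 was low at 0.789 ± 0.148 FPKM in wildtype and Chrna1, the alpha subunit of the muscle receptor, was trace at 0.0601 FPKM. Chrng, the fetal muscle gamma subunit, ranged over 0.0151, 0.138 and 0.306 FPKM in wildtype and 0, 0.196 and 1.05 FPKM in mutant libraries. Its order over the libraries went with that of the lens genes. The 7 libraries with a lens marker sum of 25.4 to 888 FPKM had 0.0748 to 1.05 FPKM of Chrng (4 to 68 reads), and the other 5, with lens sums of 1.82 to 5.35 FPKM, had 0 to 0.0319 FPKM (0 to 2 reads). Of the 7, 4 were wildtype and 3 mutant. Chrng was the only one of 49 receptor genes tested with every one of those 7 libraries above every other, while 25 of 15467 genes (0.162%) were so ordered. The sum of 8 listed skeletal muscle markers overlapped, at 1.005 to 2.046 FPKM in the 7 libraries and 0.967 to 2.42 FPKM in the 5. The split was made after the values were seen, and the part of lens cells in the level of Chrng was not tested.

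**Figure D2:**
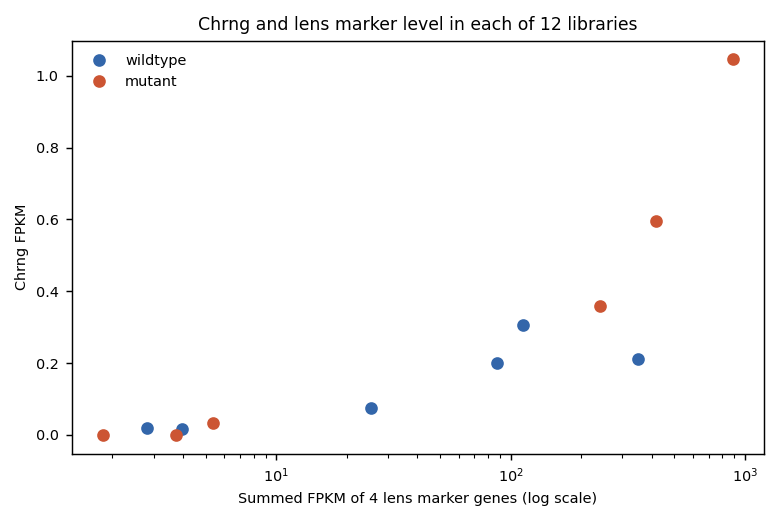
Chrng FPKM against the summed FPKM of the lens markers Cryaa, Cryab, Crygd and Mip (log scale), with 1 point per library (blue wildtype, orange mutant). The 5 libraries with lens sums up to 5.35 FPKM lie at 0 to 0.0319 FPKM of Chrng, and the other 7 lie higher, up to 1.05 FPKM in mutant female 5.

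AMPA receptors carry fast glutamate currents as assemblies of Gria1 to Gria4. Gria4 led in wildtype with 7.60, 8.36 and 8.97 FPKM, which was 56.4% ± 1.5 of the AMPA sum, and had 5.59, 7.51 and 8.90 FPKM in mutants. Gria1 was at 3.41 ± 0.382 FPKM (23.2%). Gria2, whose edited subunit makes the channel impermeable to calcium, was at 2.06, 2.40 and 2.62 FPKM in wildtype (16.3% ± 0.830 of the sum, 15.01% to 17.11% by library) and at 1.05, 2.08 and 3.17 FPKM in mutants. Gria3 was low at 0.594 FPKM (4.03%). The share of Gria2 was thus below those of Gria4 and Gria1 in each wildtype library, and its mutant levels spread to both sides of the wildtype range.

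Gria2 is a textbook target of the repressor REST, which binds a long motif called RE1 in genes of neurons. The RE1 consensus was searched on both strands of the 250 bases before each start and was found in 1 of the 44 matched receptor promoters (2.27%), that of Gria2, and in 9 of all 11881 promoters (0.0758%). The match covers 16 bases from position -170 to -155 counted from the start and is in capitals in the sequence (chr3:80802836-80803085, minus strand). A match in letters is a description and not a measured site.
Gria2: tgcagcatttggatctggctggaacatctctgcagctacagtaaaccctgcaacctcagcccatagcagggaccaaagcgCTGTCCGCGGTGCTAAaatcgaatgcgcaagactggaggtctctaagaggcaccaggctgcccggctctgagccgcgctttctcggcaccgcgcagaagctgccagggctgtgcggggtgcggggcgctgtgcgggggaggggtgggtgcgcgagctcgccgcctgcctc

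Kainate receptors modulate transmission and development. Grik5 (ENSMUSG00000003378), a high-affinity subunit that needs Grik1, Grik2 or Grik3 to form a channel, made up 81.0% ± 1.65 of the kainate sum. It had 28.6, 30.4 and 33.7 FPKM in wildtype and 25.9, 33.5 and 43.8 FPKM in mutants, where mutant libraries lay both above and below the wildtype range. The channel-forming Grik2 was at 3.68 ± 0.292 FPKM (9.66%) and Grik3 at 1.72 ± 0.272 FPKM. Grik4, the other high-affinity subunit, was at 1.39 ± 0.199 FPKM and Grik1 was low at 0.443 ± 0.113 FPKM. Transcripts of the subunits that form channels on their own were therefore fewer per length than those of their partner Grik5.

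NMDA receptors need Grin1, which binds glycine, together with Grin2 subunits, which bind glutamate. Grin1 was low, with 0.572, 0.684 and 0.756 FPKM in wildtype and 0.540, 0.841 and 0.988 FPKM in mutants. The only present gene of the family was Grin2c, with 1.60, 1.98 and 2.33 FPKM in wildtype, or 44.9% ± 1.76 of the NMDA sum against 15.3% ± 1.69 for Grin1. Grin2c stood above the highest Grin1 level in each wildtype library. The other Grin2 genes were lower still, at 0.406 FPKM for Grin2d, 0.154 FPKM for Grin2b and 0.0802 FPKM for Grin2a. The listed length of Grin2b is 23640 bases. Without regard to length it had a wildtype mean of 3.64 CPM against 2.87 CPM for Grin1, so their order depends on length. The glycine-binding Grin3a was at 0.670 FPKM and Grin3b at 0.444 FPKM, although 32.1% of the Grin3b exon bases are shared with Tmem259 on the opposite strand (29.2 FPKM). Grin1 shares 13.5% of its exon bases with the antisense gene Grin1os.

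The delta receptors bind cerebellins across the synapse and are not opened by glutamate in the usual way. Grid1 was present at 2.95 ± 0.366 FPKM. The scaffold gene Grid2ip was low at 0.209 FPKM.

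Among metabotropic glutamate receptors, 3 that lower cyclic AMP were present: Grm7 at 3.75 ± 0.377 FPKM, Grm2 at 2.97 ± 0.567 FPKM and Grm4 at 2.72 ± 0.112 FPKM. Grm8 (0.630 FPKM) and Grm3 (0.515 FPKM) of the same kind were low. Grm5 (0.0722 FPKM), which acts through phospholipase C, was trace. Grm6, the receptor by which ON bipolar cells sense photoreceptor glutamate, was listed with reads in 3 of 12 libraries and at most 4 reads in any. Other bipolar genes differed, with Vsx1 at 0.0920 FPKM and Trpm1, the channel that Grm6 controls and also a pigment cell gene, at 7.59 FPKM.

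GABA-A receptors are chloride channels, most often of alpha, beta and gamma subunits. Gabra3, an alpha subunit gene, had 4.89, 6.19 and 7.03 FPKM in wildtype (23.5% of the GABA-A sum) and 2.93, 6.26 and 6.84 FPKM in mutants. The mutant range reached below the wildtype range in 1 library, mutant male 6. Gabra2 (1.88 ± 0.397 FPKM), Gabrb2 (1.42 ± 0.159 FPKM) and Gabrg3 (1.07 ± 0.190 FPKM) were also present. Gabre (0.745 FPKM), Gabra5 (0.466 FPKM), Gabrq (0.375 FPKM) and Gabra4 (0.303 FPKM) were low. Gabrb1 (0.0780 FPKM) and Gabrg1 (0.0496 FPKM) were trace.

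Many of these genes lie in clusters, and members of 1 cluster could differ widely or little. The highest gene stood 37.9 times above the lowest by mean FPKM in Gabrg1, Gabra2, Gabra4 and Gabrb1 on chromosome 5, where the lowest, Gabrg1, had 0 to 10 reads in wildtype libraries (14.6 to 99.7 times where it had any). The ratio was 16.2 (13.5 to 22.3 by wildtype library) in Gabre, Gabra3 and Gabrq on chromosome X. The rho subunits, which form the slow GABA receptors of bipolar cells, were low or trace, with Gabrr2 at 0.165, Gabrr1 at 0.140 and Gabrr3 at 0.0709 FPKM. The neighbours Gabrr1 and Gabrr2 on chromosome 4 differed 1.18 times by mean, with a ratio of 0.444 to 5.91 in single wildtype libraries.

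GABA-B receptors are pairs of Gabbr1, which binds GABA, and Gabbr2, which couples to G proteins. Gabbr1 (ENSMUSG00000024462) had 33.6, 39.4 and 41.6 FPKM in wildtype and 32.0, 40.0 and 41.8 FPKM in mutants. Gabbr2 had 5.31, 5.87 and 6.82 FPKM in wildtype and 4.47, 5.19 and 7.62 FPKM in mutants, so that Gabbr1 made up 86.7% ± 0.861 of the sum. Glycine receptors had transcripts of the anchoring beta subunit Glrb (2.88 ± 0.612 FPKM) and of Glra2 (2.32 ± 0.228 FPKM), the alpha subunit of immature neurons. Glra3 (0.0161 FPKM) and Glra4 (0.0488 FPKM) were trace.

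Of the 69 genes of the reference annotation that match these name series, Grid2ip among them, 8 were not listed: Chrna2, Chrna9, Chrnd, Chrne, Gabra6, Gabrd, Gabrp and Glra1. In the deposited table of males, Chrna2 had 5 reads, Chrne 4 and Glra1 2 in total over 6 libraries.

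**Figure D3:**
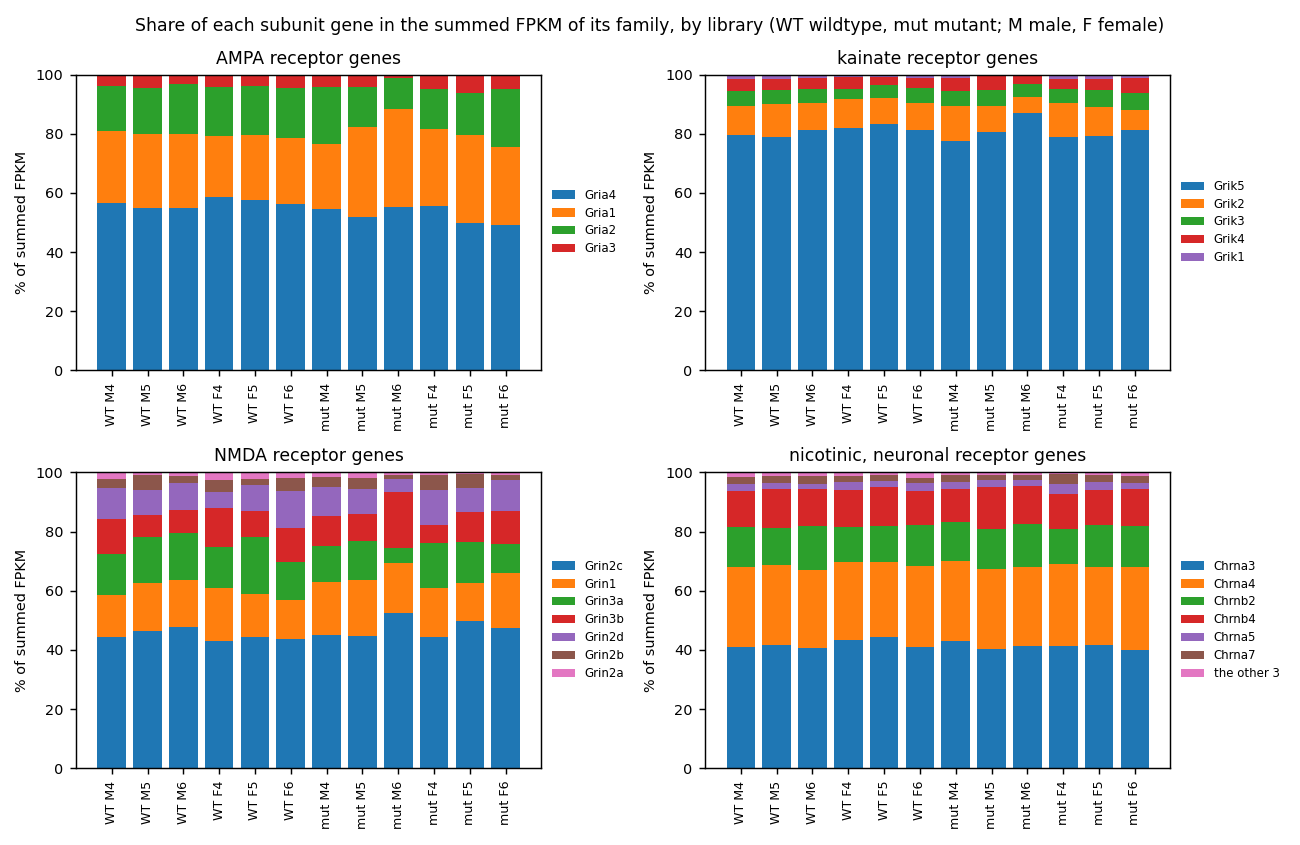
Share of each subunit gene in the summed FPKM of its family (vertical axis, %) in each of 12 libraries (WT wildtype, mut mutant, M male, F female), for AMPA, kainate, NMDA and neuronal nicotinic receptors. Gria4, Grik5, Grin2c and Chrna3 take the largest wildtype shares of their families, and Gria2 ranges from 10.4% to 19.6% in mutants against 15.01% to 17.11% in wildtype.

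The second question was whether these genes differed in mutant retina. None of the 49 receptor genes tested passed the threshold of 0.05 in edgeR's quasi-likelihood test over 12 libraries, and their adjusted p-values ran from 0.918 to 0.999. Over all genes, 4 of 15467 (0.0259%) passed, and Eomes was among them. DESeq2 and limma voom also called 0 receptors. At an unadjusted p under 0.05 there were 4 receptor genes by edgeR (8.16% of those tested, against 2.92% of all genes). DESeq2 gave 5 of the 49, with 501 of 15467 genes in all, and voom gave 4, with 514 in all. The difference was positive for 22 and negative for 27 receptor genes, with a median log2 difference of -0.02 against -0.01 over all genes. No receptor gene had mutant and wildtype libraries that did not overlap in 6 against 6 (0.207% of all genes) or within each sex in the same direction (0.394%). The authors' deposited table gave 0 of the 61 genes an adjusted p under 0.05, and no adjusted p for 11.

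The precision differed between genes. The 95% interval of the difference lay within 1.5-fold for 29 of the 49 genes and within 2-fold for 44. For the most abundant genes the bounds were narrow, with a mutant to wildtype ratio of 0.902 to 1.06 for Chrna3, 0.942 to 1.09 for Chrna4, 0.903 to 1.095 for Gabbr1 and 0.928 to 1.24 for Grik5. The ratio was bounded by 0.753 and 1.05 for Gria4 and by 0.674 and 1.20 for Gria2. Family sums were close: neuronal nicotinic genes summed to 105 ± 6.74 FPKM in mutants, GABA-B genes to 44.3 FPKM, kainate genes to 41.2 FPKM, GABA-A genes to 24.1 FPKM and AMPA genes to 14.0 ± 2.22 FPKM. Chrng had the widest interval, from -0.80 to 3.35 around a log2 difference of 1.27.

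**Figure D4:**
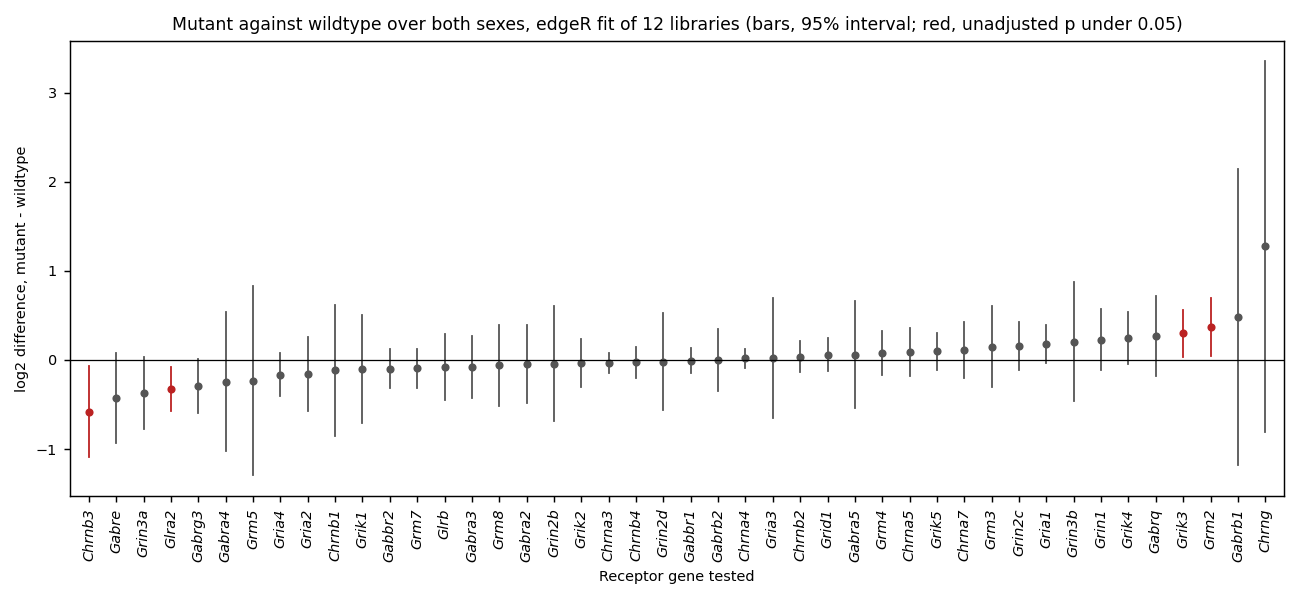
Log2 difference of mutant and wildtype (points) with its 95% interval (bars) for 44 of the 49 receptor genes tested by edgeR, ordered by the difference; red marks an unadjusted p under 0.05. The 4 red genes, Chrnb3, Glra2, Grik3 and Grm2, have adjusted p-values of 0.918.

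The 4 genes at an unadjusted p under 0.05 belong to 4 families. Glra2 (ENSMUSG00000018589, chromosome X, 165129017 to 165327393) had 2.11, 2.39 and 2.02 FPKM in wildtype males 4, 5 and 6 and 2.51, 2.29 and 2.62 FPKM in wildtype females. In mutants it had 2.09, 1.51 and 1.54 FPKM in males and 1.84, 2.12 and 2.11 FPKM in females. The 2 groups overlapped only between 2.02 and 2.12 FPKM. The log2 difference was -0.32 (SE 0.11, 95% interval -0.57 to -0.07, unadjusted p = 0.0147, adjusted p = 0.918 by edgeR), with -0.35 in males and -0.29 in females. Glrb, its partner, was at -0.08 (interval -0.46 to 0.30).

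Chrnb3 (ENSMUSG00000031492, chromosome 8, 27368711 to 27399729) had 1.37, 1.18 and 1.22 FPKM in wildtype males and 1.06, 0.698 and 1.80 FPKM in wildtype females. Its mutant values were 0.800, 0.823 and 0.718 FPKM in males and 0.454, 1.05 and 1.08 FPKM in females. Males did not overlap and females did, and wildtype female 5 was as low as the mutants. The log2 difference was -0.58 (SE 0.24, unadjusted p = 0.0281, adjusted p = 0.918, edgeR). The 5 libraries with high mt-Nd6 gave -1.13 and the remaining 7 gave -0.22.

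Grm2 (ENSMUSG00000023192, chromosome 9, 106643095 to 106656082), a presynaptic glutamate autoreceptor, had 3.40, 2.65 and 2.56 FPKM in wildtype males and 3.38, 3.60 and 2.21 FPKM in wildtype females. In mutants it had 3.52, 3.17 and 5.20 FPKM in males and 4.06, 3.56 and 3.54 FPKM in females. Mutant male 6 was the highest library and mutant female 4 the next, and the other mutants lay inside the upper part of the wildtype range. The log2 difference was 0.37 (SE 0.15, unadjusted p = 0.0275, adjusted p = 0.918, edgeR), and 0.25 without mutant male 6. Grm2 shares 9.60% of its exon bases with the antisense gene Gm28111.

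Grik3 (ENSMUSG00000001985, chromosome 4, 125490700 to 125714173) had 1.88, 1.72 and 1.92 FPKM in wildtype males and 1.21, 1.66 and 1.93 FPKM in wildtype females. Mutant libraries had 1.94, 2.29 and 2.18 FPKM in males and 1.56, 2.33 and 2.43 FPKM in females. Mutant female 4, at 1.56 FPKM, was the only mutant library inside the wildtype range. The log2 difference was 0.30 (SE 0.12, unadjusted p = 0.0291, adjusted p = 0.918, edgeR), with 0.21 in males and 0.39 in females, and 0.08 among libraries with high mt-Nd6.

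The number of receptor genes at an unadjusted p under 0.05 turned on single libraries. It was 8 of 52 tested without mutant male 4 (the same 4 genes, and Gabrg3, Gria2 and Gria4 among the others). In that fit 1851 of 15793 genes in all reached that level in place of 451. Without wildtype female 6 it was 2 of 52 (Glra2 and Grik3), with 320 of 15784 genes in all. None was called in either case.

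**Figure D5:**
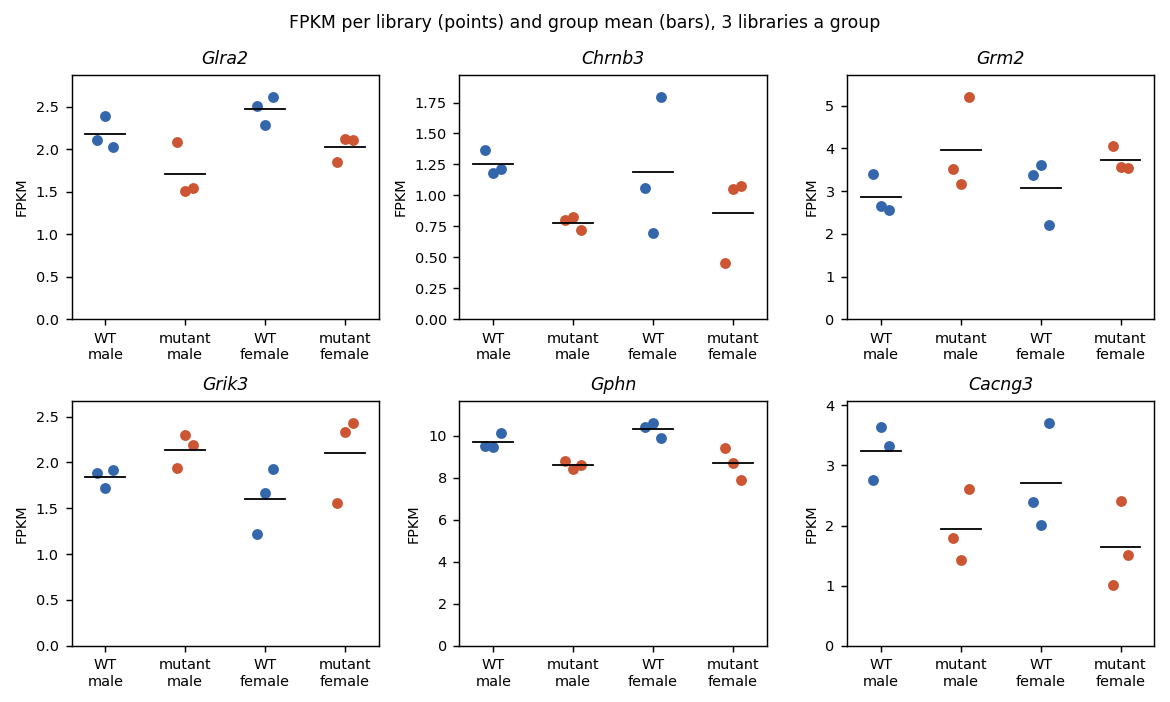
FPKM of 4 receptor genes (Glra2, Chrnb3, Grm2, Grik3) and of the partner genes Gphn and Cacng3 in each library (points) by genotype and sex, with bars at the means of 3 libraries and the axis from 0. For Gphn the 6 mutant libraries lie below the 6 wildtype libraries, and for the other 5 genes the genotypes overlap.

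The difference between the sexes was tested with the interaction of genotype and sex. Eomes itself was at 21.2 to 27.4 CPM in mutant males and 9.62 to 16.1 CPM in mutant females, while wildtype males and females overlapped. Its interaction was -0.64 on the log2 scale, not past the threshold, and its part in the receptor values was not tested. No receptor gene and no other gene of 15467 (0%) passed the threshold in edgeR, and 2 of 49 receptor genes (4.08%, against 1.73% or 267 of all genes) had an unadjusted p under 0.05. DESeq2 and voom called 0 genes, with 264 and 272 at that level. Grik1 had 0.539, 0.621 and 0.420 FPKM in wildtype males against 0.412, 0.250 and 0.243 FPKM in mutant males, and 0.345, 0.351 and 0.380 FPKM in wildtype females against 0.444, 0.620 and 0.537 FPKM in mutant females. Mutants were thus below wildtype in males and above it in females, with no overlap in either sex. Genes with this opposite pattern were not counted over all genes. Grik1 was picked for the smallest interaction p among the receptor genes, so the separation is no separate support. The female difference exceeded the male one by 1.37 on the log2 scale (SE 0.43, unadjusted p = 0.00782, adjusted p = 1.0 by edgeR's interaction test), at 13 to 46 reads a library. For Chrna7 the excess was 0.61 (SE 0.25, unadjusted p = 0.0301, adjusted p = 1.0 by the same edgeR test). Wildtype females had 2.05, 2.16 and 1.93 FPKM of Chrna7 and mutant females 3.22, 2.41 and 2.55 FPKM, while males overlapped. Grm8 (0.65) and Chrnb1 (-0.95) were among the next, neither at an unadjusted p under 0.05, and without mutant female 5 they were at 0.38 and -0.48.

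Genes that work with these receptors were taken in 7 lists of 82 genes. Of the 77 genes tested, 0 passed the edgeR threshold, 5 (6.49%, against 2.92% of all genes) had an unadjusted p under 0.05, and 35 differences were positive and 42 negative, with a median of -0.02. The auxiliary proteins of AMPA and kainate receptors varied widely, and 9 of the 15 genes lay below the median coding gene (6.67 FPKM), the lowest, Shisa9, at 0.223 FPKM. Cacng4 at 91.9 FPKM, Cnih2 at 48.8 FPKM and Cacng7 at 38.5 FPKM, whose proteins help AMPA receptors reach or stay at the surface, were among the higher ones. Of the 15 genes in that list 7 differences were positive and 8 negative. Cacng3, another such protein, had 2.01, 3.04 and 3.70 FPKM in wildtype and 1.01, 1.64 and 2.61 FPKM in mutants. Its log2 difference was -0.74 (SE 0.22, unadjusted p = 0.00543, adjusted p = 0.918, edgeR), with -1.32 among libraries with high mt-Nd6 and -0.36 among the rest.

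Of 18 scaffold genes of glutamate receptors, 9 were higher and 9 lower in mutants by their fitted values, none past the threshold, and Dlg4, which encodes PSD-95, was at 31.8 FPKM. Homer3, a scaffold of metabotropic receptors, was at 0.18 (unadjusted p = 0.0386, adjusted p = 0.918, edgeR), and at 0.10 where mt-Nd6 was high. Of 10 scaffold genes of GABA and glycine receptors, 5 differences had each sign. Gphn, which encodes gephyrin, the protein that anchors glycine receptors through Glrb, had 9.47, 10.02 and 10.60 FPKM in wildtype and 7.90, 8.65 and 9.43 FPKM in mutants. It was the one partner gene of 77 (1.30%, against 0.207% of all genes) whose 6 mutant libraries all lay below the 6 wildtype libraries. The log2 difference was -0.21 (SE 0.06, unadjusted p = 0.00413, adjusted p = 0.918, edgeR), with -0.11 where mt-Nd6 was high and -0.25 where it was low.

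Among 8 tested partners of acetylcholine receptors, 5 differences were positive and 3 negative, and none had an unadjusted p under 0.05. Transmitter synthesis and vesicle loading showed 0 positive and 8 negative differences of 8 tested, with a median log2 difference of -0.22 and none at an unadjusted p under 0.05. Over all genes 52.7% of differences were negative. Of the marker genes tested, those of ganglion cells had 0 positive and 6 negative differences. Amacrine cell markers had 2 and 4, progenitor markers 4 and 1, and horizontal cell and photoreceptor precursor markers 2 and 2 each. None of these markers had an unadjusted p under 0.05 by edgeR. Gad1, Gad2 and Slc32a1 are in the amacrine list and also in the synthesis list, so those counts share genes. The part of cell makeup was not tested. Gad2, a GABA-synthesising enzyme gene, was at 10.2 FPKM in wildtype and 9.40 FPKM in mutants, and Slc17a6, a vesicular glutamate transporter of ganglion cells, at 8.89 and 8.39 FPKM. Slc18a3, the vesicular acetylcholine transporter, was at 0.0176 and 0.0869 FPKM, and Slc5a7, the choline transporter, at 0.569 and 0.471 FPKM. Slc18a3 was not among the 8 tested. Its mutant mean leaned on mutant male 6 (0.336 FPKM), while mutant male 4 and mutant female 6 had 0 FPKM. Chat was not listed. Of 14 uptake and breakdown genes, 6 differences were positive and 8 negative, and the glutamate transporter gene Slc1a7 was at -0.66 (unadjusted p = 0.0213, adjusted p = 0.918, edgeR). Its level was low, with 0.28, 0.44 and 0.57 FPKM in wildtype and 0.21, 0.26 and 0.45 FPKM in mutants, and the genotypes overlapped.

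Of the chloride transporters, which set whether GABA excites or inhibits, the importer Slc12a2 was at 8.51 FPKM and the neuronal exporter Slc12a5 at 1.83 FPKM in wildtype. Of the 5 tested, 3 differences were positive and 2 negative.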

How the data were processed

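RNA of 12 libraries was analysed from the deposited table of both sexes. The submitters' processing notes name CASAVA for base calls, STAR 2.5 for alignment to mm10, HTSeq 0.6.1 for gene counts and DESeq2 for the comparison. Annotation release and strand setting: not given in the sources used here. Per the file headers, the authors deposited raw read counts per gene, which were whole numbers, and FPKM values, which equalled counts over listed gene length and library total. The signal columns deposited by the authors equalled the counts over a constant per library and were not used. The authors also deposited log2 fold changes and p-values of their own comparison, and only counts of genes past 0.05 were taken from them.

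Levels are the deposited FPKM. Tests used the counts with edgeR 4.0.16 in R 4.3.3 (TMM scaling, filterByExpr, two-sided quasi-likelihood test, Benjamini-Hochberg adjustment over 15467 genes, threshold 0.05), with genotype and sex as terms and, for the second test, their interaction. Alternatives used DESeq2 1.42.0 and limma 3.58.1. The fit was checked on simulated counts. Of the 60 receptor genes, 49 passed the filter. The text names Eomes, the present receptor genes, those with an unadjusted p under 0.05, the 5 with the smallest interaction p, and up to 3 genes per partner list by p, of which those under 0.05 are described. Others named were chosen after their values were seen. Some genes that this rule covers are not reported here. Members, lists and rules were chosen with earlier results of these data known. Depth limits the precision of low genes, and the files give no molecular identifiers.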

Additional observations from a re-analysis of the deposited data

Results flagged for a closer look

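In groups of 6 libraries of 1 genotype, a library was picked out when its gap to the nearest other library was large for the range of the group by Dixon's criterion. Of 100 groups tested (50 receptor genes in both genotypes), 8 had such a library, where chance gives about 1 in 20, or 5.0. Mutant male 6 accounted for 3 of them: Gabra3 was at 2.93 FPKM with the next library at 5.99 FPKM, Grm4 at 4.07 FPKM with the next at 2.82 FPKM, and Gria3 at 0.114 FPKM with the next at 0.625 FPKM. This library also had reads on the fewest genes, 16903, and among the 30 present receptor genes it was the highest of 12 libraries for 8 and the lowest for 7. Mutant female 4 was the lowest for 9.

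Chrnb1 was at 0.139 FPKM in mutant female 5 (next 0.707 FPKM), the library with the highest lens marker sum, 888 FPKM, and Gabrq was at 0.709 FPKM there (next 0.470 FPKM). Gabre was at 1.003 FPKM in mutant female 6 (next 0.529 FPKM). In wildtype, Grik3 was at 1.21 FPKM in female 4 (next 1.66 FPKM) and Chrna6 at 0.340 FPKM in male 4 (next 0.175 FPKM). The part of library quality or of other tissues in these values was not tested.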

How the results depend on the processing

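The count of receptor genes past the threshold was 0 in each of 23 alternatives for mutant against wildtype and each of 18 for the interaction. These covered other scaling, DESeq2, limma voom, no filter on low counts, single sexes, either mt-Nd6 set, the mt-Nd6 set as a term, leaving out the 3 libraries highest in Cryaa and leaving out each library in turn (0 throughout). With the replicate number as a block it was also 0 in both comparisons. For the interaction 1 receptor gene, Grik1, in place of 2 had an unadjusted p under 0.05 (274 in place of 267 over all genes). The replicate numbers were not taken to pair the samples, since the study names no pairing. Not every same-numbered pair correlated over 0.1: the 3 female pairs were at 0.138 to 0.213 and the male pairs at -0.205, 0.00822 and 0.292. The 3 female and 1 of the 3 male mutant libraries correlated best with their own number, a hint of pairing from the data and not from the design. Over all genes edgeR called 4 without the block and 1 with it, DESeq2 15 and voom 5.

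The log2 difference kept its sign in all 23 alternatives for Glra2 (-0.39 to -0.25), Grm2 (0.25 to 0.48), Chrnb3 (-1.13 to -0.22) and Grik3 (0.08 to 0.39), with unadjusted p under 0.05 in 18, 15, 17 and 15 of them and adjusted p between 0.422 and 1.0. Over the 12 fits without 1 library the values were -0.39 to -0.28, 0.25 to 0.43, -0.72 to -0.41 and 0.23 to 0.36. These 4 genes were picked by their p in the same libraries, and the alternatives refit all or part of those libraries. A kept sign was therefore likely from the start and is no independent support. Receptor genes at an unadjusted p under 0.05 numbered 2 of 49 tested in males alone, where 210 of 14945 genes in all reached it. In females alone the number was 1 of 48 (394 of 14956 in all). In the libraries low in mt-Nd6 the number was 1 of 55 (1409 of 16149 in all). For the interaction the number was 1 without wildtype female 4, wildtype female 6, mutant male 5 or mutant female 4. The counts over all genes were 260, 212, 367 and 325 in those fits, of 15778 to 15788 tested. The interaction of Grik1 ran from 1.22 to 1.66 and of Chrna7 from 0.45 to 0.69 over 18 alternatives. Eomes missed the threshold in males alone (-1.43, adjusted p = 0.295, edgeR) and without the 3 libraries highest in Cryaa (-1.71, adjusted p = 0.131).

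Present receptor genes numbered 30, 30 without each wildtype library in turn, 37 at 0.5 FPKM, 22 at 2 FPKM, 28 at 1 FPKM in each wildtype library, 45 at 1 CPM and 28 in mutant libraries. With the union of exons of the reference as length, an alternative chosen after seeing the data, it was 25, with Gabrb2, Gabrg3, Chrnb3 and Gabra2 among the 5 that came under 1, and the first 10 genes were the same 10, in another order. Listed lengths are shorter than the union for most genes, with a median ratio of 1.24 and a highest of 4.48, so levels of unlike genes depend on the length used.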
